A study of Homo sapiens with 10 samples.

Results

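The comparison described here is that of K562 cells labelled as carrying dCas9-LSD1 and sgRNAs to the HS2 enhancer with K562 cells labelled as carrying the sgGal4 control. Its 4 libraries, 2 labelled dCas9-LSD1 and 2 labelled sgGal4, were taken by their titles from the 10 RNA-seq libraries of the series, and the 6 libraries of the other sgHS2 groups served only to show where dCas9-LSD1 differed from them. K562 is an established erythroleukemia line that transcribes embryonic and fetal globin genes. The other groups, with 2 libraries each, are labelled dCas9-KRAB, enCRISPRi-LK and enCRISPRi-KL, the last 2 being complexes of dCas9 with both repressors. Per the methods, doxycycline switched on the dCas9 fusions in cells sorted for the fluorescent markers of their lentiviral vectors, so that each group is a sorted population and not a clone, and several sgRNAs to HS2 were combined. The labels of the sgGal4 libraries name no dCas9 fusion, so the effector and the target site differ together between these groups.

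HS2 is a DNase I hypersensitive site in the β-globin locus control region, a cluster of enhancers upstream of HBE1 that drives the β-like globin genes in red cell precursors. LSD1, the product of KDM1A, is a flavin-dependent demethylase that removes methyl groups from lysine 4 of histone H3 and acts with the corepressor CoREST and histone deacetylases. In blood cells it is recruited to genes by GFI1 and GFI1B, and it is known as a repressor of γ-globin transcription. Tethered to an enhancer through catalytically dead Cas9, it is used to remove the histone marks of an active enhancer.

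Levels are in TPM, which scales each library's transcripts to the same sum and holds no read numbers, so the depth behind each value is unknown. Differences are log2 fold changes on the log2(TPM + 1) scale from limma, and understate the change where TPM is low. The 9 K562 markers examined were all above 1 TPM in some library, with summed levels of 2983 to 3084 TPM in the sgGal4 libraries and 2271 to 2371 TPM in those labelled dCas9-LSD1. GATA1 was listed at 0 in all 10 libraries, and its level could not be read. Mitochondrially encoded genes held 53.6% and 43.7% of the listed TPM in the sgGal4 libraries and 46.6% and 46.1% in those labelled dCas9-LSD1. Of 4 T cell markers, CD3E and CD8A were listed at 0 in every library, whereas the sum, carried by CD3D and CD3G, was 27.3 to 34.9 TPM in the sgGal4 libraries and 3.16 to 10.7 TPM in those labelled dCas9-LSD1. Neither CD3D (adjusted p = 0.125) nor CD3G (adjusted p = 0.815) passed the threshold in limma, and CD3D was at 1.75 to 21.3 TPM in the other sgHS2 libraries. In bulk RNA, fewer cells of a type and less RNA per cell cannot be told apart. What part the mitochondrial share or these transcripts have in the results was not tested.

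The effector was read first. KDM1A (chromosome 1, 23345961 to 23410182, plus strand, hg19) stood at 25.2 and 33.5 TPM in the sgGal4 libraries and at 105 and 84.2 TPM in those labelled dCas9-LSD1. The groups did not overlap, and the 6 other sgHS2 libraries, at 26.6 to 30.6 TPM, were all within the range of sgGal4. The paper describes enCRISPRi-LK and enCRISPRi-KL as carrying an LSD1 fusion as well. Their libraries held 27.4 and 30.6 TPM and 26.8 and 26.6 TPM, so KDM1A did not follow the LSD1 fusion across the labels. The reason was not tested. With dCas9-LSD1 the log2 fold change of KDM1A was 1.66 from sgGal4 (standard error 0.224, adjusted p = 0.00256) and 1.71 from the other sgHS2 groups (standard error 0.183, adjusted p = 0.00092). Without dCas9-LSD1 replicate 1 it was 1.5 and 1.55, and neither value passed the threshold.

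ZNF10 encodes a KRAB zinc finger protein whose KRAB domain is in common use as a repressor. Its level (chromosome 12, 133707213 to 133736051, plus strand, hg19) was 0.97 and 1.89 TPM in the sgGal4 libraries and 128 and 136 TPM in those labelled dCas9-LSD1. It was only 1.18 and 3.80 TPM with dCas9-KRAB, against 31.5 and 36.8 TPM with enCRISPRi-LK and 360 and 365 TPM with enCRISPRi-KL. ZNF10 gave the largest fold change of all genes past the threshold against sgGal4, 5.80 on the log2 scale (standard error 0.329, adjusted p = 5.33e-07). A KRAB transcript is thus high in libraries whose label names LSD1 alone and low in those labelled dCas9-KRAB, so each group is referred to here by its label, and every direction below is that of the libraries so labelled. Whether the reads came from the vector or from the chromosomal gene was not tested.

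**Figure D1:**
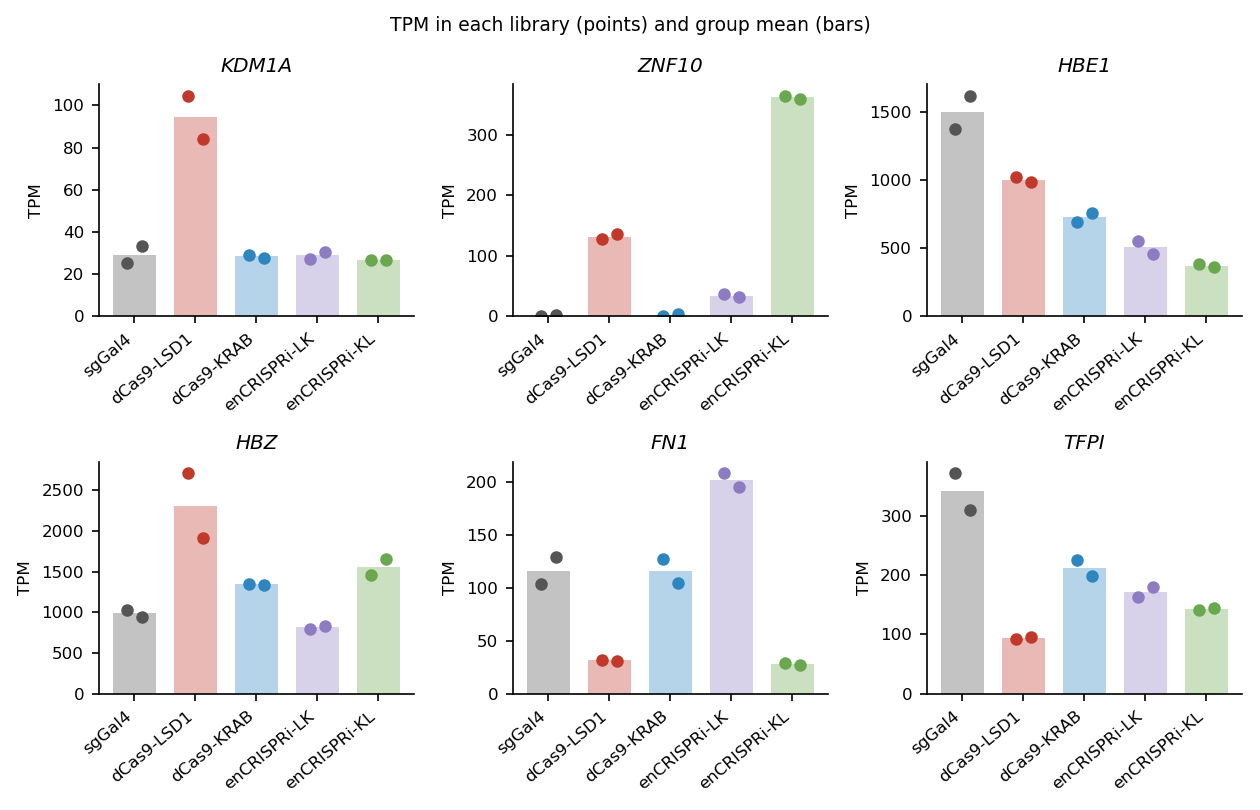
TPM of 6 genes in each of the 10 libraries (points) with the mean of each group (bars), by the group named in the labels. KDM1A was raised only in the libraries labelled dCas9-LSD1, ZNF10 was high in 3 of the sgHS2 groups, and the dCas9-LSD1 libraries held the highest HBZ and the lowest TFPI.

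Partners of LSD1 followed no single direction. Of the 14 genes of the LSD1 and CoREST list that were tested, KDM1A and GFI1B passed the threshold, both higher. Over all genes tested, 0.306% were called higher. The list had a median log2 fold change of 0.13 against 0.00497 over all genes tested. RCOR1, which encodes CoREST, was at 14.6 and 28.5 TPM with sgGal4 and 7.6 and 8.63 TPM with dCas9-LSD1, a log2 difference of -1.24 that did not pass (adjusted p = 0.141). HDAC1 and HDAC2, the deacetylases of the complex, differed by 0.09 (adjusted p = 0.917) and -0.07 (adjusted p = 0.948). Of 8 tested genes of the KRAB corepressor list, ZNF10 alone passed, and TRIM28, the scaffold that KRAB domains bind, was at 186 and 197 TPM with sgGal4 and 204 and 236 TPM with dCas9-LSD1 (log2 difference 0.19, adjusted p = 0.751). GAPDH, a common reference transcript, differed by -0.06 (adjusted p = 0.914).

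Of the 10127 genes tested, 88 (0.869%) passed an adjusted p of 0.05 between the libraries labelled dCas9-LSD1 and sgGal4, 31 higher (0.306%) and 57 lower (0.563%). Among them, 64 changed by at least 1 on the log2 scale, 18 higher and 46 lower, and 1296 genes had an unadjusted p under 0.05. All 88 had libraries that did not overlap between the groups, as did 41.3% of all genes tested. The labels do not say that the libraries of a group came from separate cultures, so the p-values measure the spread between these libraries, which may be technical, and an exact permutation test of 2 libraries against 2 cannot go below 0.333. Leaving out 1 library changed the count by more than 1.5 times in each case. It was 23 without dCas9-LSD1 replicate 1, 16 without replicate 2, 44 without sgGal4 replicate 1 and 138 without sgGal4 replicate 2, and in the last case the balance turned to 99 higher and 39 lower. The 10 genes that passed in every alternative in which they were tested and in every fit without 1 library were ZNF10, SOD3 and APOC1, which were higher, and ANTXR2, DDIT4, FN1, SCG3, SLC2A3, TFPI and TMEM158, which were lower, of which ANTXR2 and SCG3 were named after their values were seen.

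**Figure D2:**
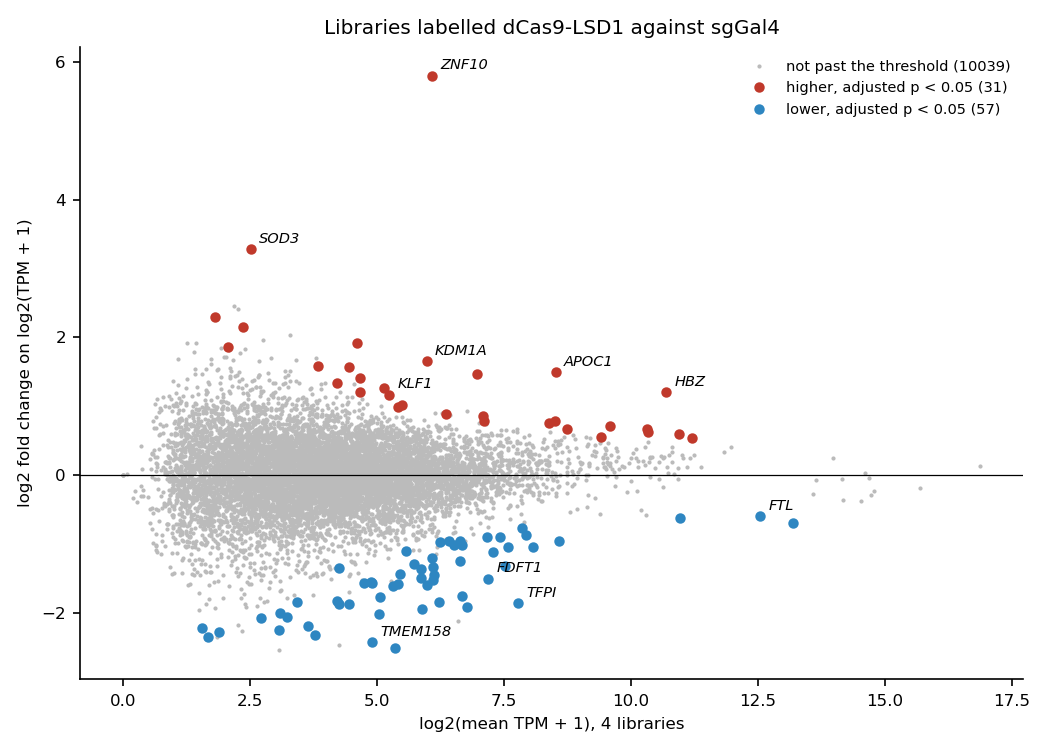
Log2 fold change on the log2(TPM + 1) scale of each of the 10127 genes tested between the libraries labelled dCas9-LSD1 and sgGal4 (vertical axis) against log2(mean TPM + 1) over the 4 libraries (horizontal axis). The 31 genes past the threshold that were higher are in red and the 57 that were lower in blue, and ZNF10 lies farthest from 0.

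The genes past the threshold also differed in composition. The higher genes had a median GC content of 57.7% and a median transcript length of 1706 bases, and the lower genes 45.5% and 3160 bases, against 47.8% and 3359 bases over all genes tested. When both measures were corrected for, an alternative added once these values were seen, 121 genes passed, among them 71 of the 81 earlier calls that could be tested in it. Their part in single genes was not tested further.

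The β-like globin genes, which HS2 serves, lay lower in sum, and none passed the threshold alone, though HBE1 and HBG2 did under some alternatives. HBE1, the embryonic gene (chromosome 11, 5289575 to 5291175, minus strand, hg19), was at 1376 and 1620 TPM in the sgGal4 libraries and 1019 and 986 TPM in those labelled dCas9-LSD1. The libraries did not overlap, and the log2 difference of -0.57 missed the threshold (95% interval -0.85 to -0.30, adjusted p = 0.0567). It passed without sgGal4 replicate 1 (-0.69, adjusted p = 0.0423), with a mean of at least 10 TPM, without mitochondrially encoded genes, with quantile normalization and when GC content and length were corrected for (adjusted p = 0.00949). HBG2, a fetal gene, was at 941 and 673 TPM with sgGal4 and 554 and 519 TPM with dCas9-LSD1 (log2 difference -0.57, adjusted p = 0.125). For HBG2 the difference passed without sgGal4 replicate 2 (-0.81, adjusted p = 0.02), with quantile normalization and with the same correction. HBG1 is nearly identical to HBG2 in sequence, so the reads of the pair cannot be divided with certainty. Its levels of 118 and 99.4 TPM with sgGal4 and 110 and 97.4 TPM with dCas9-LSD1 overlapped. HBD and HBB, the adult genes, differed by 0.14 (adjusted p = 0.871) and 0.01 (adjusted p = 0.999), HBB at no more than 4.70 TPM in these 4 libraries.

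Of the 5 genes, 0 passed in limma, and 2, HBE1 and HBG2, had an unadjusted p under 0.05 (1296 of all 10127 genes did). Their sum was 2459 and 2414 TPM with sgGal4 and 1707 and 1627 TPM with dCas9-LSD1, a difference of -0.55 (95% interval -0.76 to -0.34, adjusted p = 0.0177). The call was lost without dCas9-LSD1 replicate 1 (-0.58, adjusted p = 0.12) and without replicate 2 (-0.51, adjusted p = 0.204).

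With dCas9-LSD1, HBE1 and the summed β-like genes lay between the sgGal4 libraries and the other sgHS2 groups. HBE1 was at 695 and 759 TPM with dCas9-KRAB, 557 and 458 TPM with enCRISPRi-LK and 384 and 361 TPM with enCRISPRi-KL, all below both dCas9-LSD1 libraries. The difference of dCas9-LSD1 from these 3 groups was 0.96 (standard error 0.105, 95% interval 0.73 to 1.18, adjusted p = 0.00092), and without dCas9-LSD1 replicate 1 it was 0.94 and did not pass. The summed β-like genes were higher by 0.73 (95% interval 0.56 to 0.90, adjusted p = 0.000771), from 648 to 1572 TPM in the 6 other sgHS2 libraries, and without dCas9-LSD1 replicate 1 that difference did not pass (0.69, adjusted p = 0.0681). Against dCas9-KRAB alone, HBE1 differed by 0.46 (adjusted p = 0.368) and the sum by 0.11 (adjusted p = 0.806), neither past the threshold. The γ-globin pair and HBD were not placed so. HBG1 and HBG2 together were at 663 and 617 TPM with dCas9-LSD1 and at 829 and 712 TPM with dCas9-KRAB, a difference of -0.27 that did not pass (adjusted p = 0.668). HBD was at 21.6 and 20.4 TPM with dCas9-LSD1 and at 41.1 and 39.1 TPM with dCas9-KRAB, a log2 difference of -0.90 that did not pass (adjusted p = 0.356).

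HBZ, the embryonic α-like globin gene (chromosome 16, 202643 to 204502, plus strand, hg19), moved in the other direction. It was at 1034 and 940 TPM in the sgGal4 libraries and 2712 and 1909 TPM in those labelled dCas9-LSD1, the highest of all 10 libraries. The other sgHS2 libraries ranged from 800 TPM with enCRISPRi-LK to 1659 TPM with enCRISPRi-KL. HBZ rose by 1.21 from sgGal4 (standard error 0.142, adjusted p = 0.00115) and exceeded the other sgHS2 groups by 0.93 (standard error 0.116, adjusted p = 0.00327). The latter was 0.68 without dCas9-LSD1 replicate 1 and did not pass. Of the 4 α-like genes tested, HBZ was the only one past the threshold against sgGal4. The adult genes HBA1 and HBA2 together were at 140 and 81.3 TPM with sgGal4 and 118 and 87.7 TPM with dCas9-LSD1, which overlapped. Their difference was -0.07, with a 95% interval of -0.67 to 0.53. HBA2 alone was at 3.64 and 0 TPM with sgGal4 and 4.89 and 4.61 TPM with dCas9-LSD1 (log2 difference 1.42, adjusted p = 0.349). HBQ1 differed by 0.05 (adjusted p = 0.971), and HBM was listed at 0 in every library.

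A pair of erythroid transcription factors was higher with dCas9-LSD1. KLF1, the factor that activates adult globin and many red cell genes, was at 20.3 and 24.1 TPM in the sgGal4 libraries and 52.4 and 49.4 TPM in those labelled dCas9-LSD1. The 6 other sgHS2 libraries lay between the groups, at 35.9 to 46.4 TPM, and the difference of dCas9-LSD1 from them was 0.33 (95% interval -0.04 to 0.70, adjusted p = 0.604). GFI1B, a repressor that recruits LSD1, was at 25.1 and 32.7 TPM with sgGal4 and 62.8 and 55.8 TPM with dCas9-LSD1. The other sgHS2 libraries held 32.5 to 45.2 TPM of it, a difference of 0.63 that did not pass (adjusted p = 0.309). From sgGal4 the fold changes were 1.17 for KLF1 (standard error 0.212, adjusted p = 0.019) and 1.02 for GFI1B (standard error 0.222, adjusted p = 0.0491). Neither passed without sgGal4 replicate 1 (1.05 and 0.84), without dCas9-LSD1 replicate 1 (1.13 and 0.94) or without dCas9-LSD1 replicate 2 (1.21 and 1.11).

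The sequence upstream of KLF1 is shown because KLF1 had the larger rise of the pair. It covers the 250 bases before the start of KLF1 in RefSeq (chr19:12887202-12887451, GRCh38.p14, minus strand), 5′ to 3′, with the letters GATAA, searched on both strands, in capitals.
KLF1: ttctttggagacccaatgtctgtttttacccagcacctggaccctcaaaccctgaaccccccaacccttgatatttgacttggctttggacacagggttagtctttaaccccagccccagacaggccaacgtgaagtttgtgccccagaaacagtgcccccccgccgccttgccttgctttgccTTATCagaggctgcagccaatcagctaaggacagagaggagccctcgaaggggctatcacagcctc
The window holds 1 match, on the strand opposite to transcription. Such a match is in 20.4% of the 35116 upstream windows of the same length in this table and is a description of the sequence only.

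Of the 15 erythroid transcription factors tested, KLF1 and GFI1B were the 2 past the threshold, against 0.306% of all genes called higher. The list median was 0.24. GATA2 was at 72.8 and 87.3 TPM with sgGal4 and 71.2 and 62.0 TPM with dCas9-LSD1 (log2 difference -0.26, adjusted p = 0.613), and NFE2, a partner of small Maf proteins at the locus control region, differed by 0.13 (adjusted p = 0.815). Among the 14 regulators of the fetal globin genes, only KLF1, which is in both lists, passed. BCL11A, the repressor of γ-globin, was at 1.20 and 1.72 TPM with sgGal4 and 2.70 and 4.63 TPM with dCas9-LSD1 (log2 difference 0.90, adjusted p = 0.386).

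Of 10 enzymes of heme synthesis, 0 passed in limma. An unadjusted p under 0.05 was found for 5, all higher, and for 1296 of all 10127 genes in either direction. The list median was 0.36. The median was 0.23 without sgGal4 replicate 1, 0.64 without sgGal4 replicate 2 and 0.22 with GC content and length corrected for, where 1 passed. ALAD, the second enzyme of the pathway, was at 3.54 and 5.51 TPM with sgGal4 and 11.9 and 14.2 TPM with dCas9-LSD1 (log2 difference 1.37, adjusted p = 0.0932). FECH, which inserts iron, was at 51.8 and 69.8 TPM and at 92.0 and 104 TPM (log2 difference 0.69, adjusted p = 0.163), with the 6 other sgHS2 libraries at 45.8 to 62.0 TPM. The libraries of both genes did not overlap, as for 41.3% of all genes. Among 12 tested genes of iron handling, FTL, the ferritin light chain, fell from 7121 and 7199 TPM to 5072 and 4446 TPM (-0.59, adjusted p = 0.0121), and without dCas9-LSD1 replicate 2 the change was -0.50 and did not pass. The FTL call was also lost with no filter on TPM, median-of-ratios size factors, quantile normalization, no trend and only the groups compared. FTH1, the heavy chain, differed by 0.11 (adjusted p = 0.739), and TFRC, the transferrin receptor, by -0.02 (adjusted p = 0.977). Of 14 red cell membrane genes 0 passed in limma, and 3 had an unadjusted p under 0.05. Of the 5 megakaryocyte genes tested, 0 passed and 1 had an unadjusted p under 0.05.

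**Figure D3:**
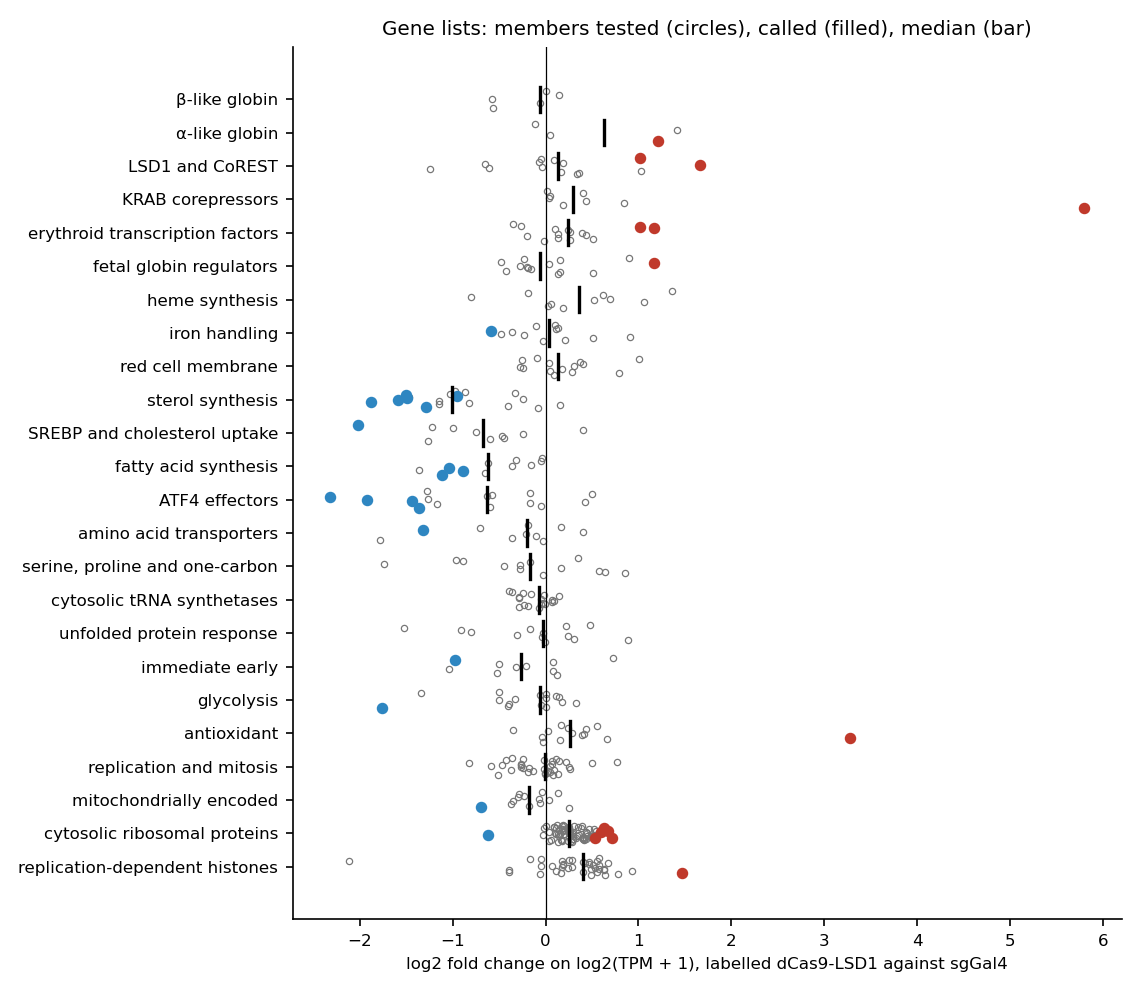
Log2 fold change between the libraries labelled dCas9-LSD1 and sgGal4 (horizontal axis) of the tested members of 24 gene lists (rows), with genes past the threshold filled in red (higher) or blue (lower) and the median of each list as a bar. Of the lists shown, that of sterol synthesis has the lowest median, -1.0, and that of the α-like globins the highest, 0.63.

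Genes of sterol synthesis were lower. The enzymes of this pathway turn acetyl-CoA into cholesterol by way of mevalonate, and most are under the transcription factor SREBP2, which is held back by INSIG1 when sterols abound. Of the 18 enzymes tested, 6 passed the threshold, all lower, 12 were lower at an unadjusted p under 0.05, and the median was -1.0 against 0.00497 over all genes. A fall was called in 0.563% of all genes tested, and 1296 of the 10127 had an unadjusted p under 0.05 in either direction.

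FDFT1, squalene synthase, was at 194 and 233 TPM in the sgGal4 libraries and 68.3 and 80.9 TPM in those labelled dCas9-LSD1, a change of -1.50 (standard error 0.198, adjusted p = 0.00208). HMGCS1, an early enzyme of the mevalonate pathway, fell from 66.2 and 105 TPM to 26.2 and 32.0 TPM (-1.50, adjusted p = 0.0284). IDI1, the isomerase of the isoprenoid units, fell from 86.3 and 102 TPM to 27.7 and 33.2 TPM (-1.59, adjusted p = 0.00621). In each of these genes the dCas9-LSD1 libraries lay below both sgGal4 libraries. The libraries of all 88 genes past the threshold, and of 41.3% of all genes tested, did not overlap. The other 3 were SQLE, the squalene epoxidase (-1.29, adjusted p = 0.0204), MSMO1, a sterol demethylating oxidase (-1.88, adjusted p = 0.0491), and FDPS, farnesyl diphosphate synthase (-0.95, adjusted p = 0.04). FDFT1 passed without any 1 of the 4 libraries, whereas SQLE, MSMO1 and FDPS lost their calls without each of them, HMGCS1 without sgGal4 replicate 2 or either dCas9-LSD1 library and IDI1 without dCas9-LSD1 replicate 1.

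Summed over the list, sterol synthesis transcripts were at 847 and 1022 TPM with sgGal4 and at 411 and 413 TPM with dCas9-LSD1, a change of -1.17 (standard error 0.125, adjusted p = 0.000405). The other sgHS2 libraries were at 356 to 450 TPM, around those of dCas9-LSD1, and the difference of 0.05 did not pass, with a 95% interval of -0.17 to 0.27 (adjusted p = 0.928). From the same sgGal4 libraries, which all 4 comparisons share, the sum differed by -1.22 with dCas9-KRAB, -1.09 with enCRISPRi-LK and -1.37 with enCRISPRi-KL. The number of enzymes called against sgGal4 ranged from 1 without dCas9-LSD1 replicate 1 and 2 without dCas9-LSD1 replicate 2 or sgGal4 replicate 2 to 3 without sgGal4 replicate 1, and was 0 without a mean-variance trend.

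Neighbouring lists held further falls. INSIG1 was at 38.1 and 64.5 TPM with sgGal4 and 7.97 and 16.4 TPM with dCas9-LSD1 (-2.02, adjusted p = 0.0495), the only call among 10 genes of SREBP and cholesterol uptake, whose median was -0.67. That call was lost without each of the 4 libraries, and also with no trend, with only the groups compared, with no filter on TPM and with 0.1 as the pseudocount. SREBF2, the gene of SREBP2, differed by -0.60 (adjusted p = 0.398). From the same sgGal4 libraries the median of this list was -0.98 with dCas9-KRAB, -0.63 with enCRISPRi-LK and -0.72 with enCRISPRi-KL. Of 11 fatty acid genes 3 passed, all lower, against 0.563% of all genes called lower. The median was -0.62. From the same sgGal4 libraries it was -0.69 with dCas9-KRAB, -0.68 with enCRISPRi-LK and -0.74 with enCRISPRi-KL. SCD, the desaturase that makes oleate, fell from 194 and 229 TPM to 102 and 91.9 TPM (-1.12, adjusted p = 0.00403). FADS1, a desaturase of polyunsaturated fatty acids, fell from 272 and 238 TPM to 114 and 133 TPM (-1.04, adjusted p = 0.0167). FASN, the fatty acid synthase, fell from 210 and 230 TPM to 115 and 121 TPM (-0.89, adjusted p = 0.0265). The count of fatty acid genes called was 0 without dCas9-LSD1 replicate 2, 1 without dCas9-LSD1 replicate 1 or sgGal4 replicate 1 and 2 without sgGal4 replicate 2, and FASN lost its call without each of the 4 libraries.

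Promoters of 3 of these genes are shown as members of a group that moved together. The sequences are the 250 bases before the gene start in RefSeq (GRCh38.p14, plus strand), at chr4:165327419-165327668 for MSMO1, chr1:155308616-155308865 for FDPS and chr7:155297628-155297877 for INSIG1, 5′ to 3′, with CCAAT or its complement ATTGG in capitals, the box bound by NF-Y.
MSMO1: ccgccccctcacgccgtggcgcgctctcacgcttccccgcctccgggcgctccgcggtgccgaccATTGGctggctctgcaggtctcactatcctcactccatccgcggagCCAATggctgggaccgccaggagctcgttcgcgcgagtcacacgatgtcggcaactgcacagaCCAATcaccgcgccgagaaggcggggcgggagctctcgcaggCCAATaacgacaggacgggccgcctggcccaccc
FDPS: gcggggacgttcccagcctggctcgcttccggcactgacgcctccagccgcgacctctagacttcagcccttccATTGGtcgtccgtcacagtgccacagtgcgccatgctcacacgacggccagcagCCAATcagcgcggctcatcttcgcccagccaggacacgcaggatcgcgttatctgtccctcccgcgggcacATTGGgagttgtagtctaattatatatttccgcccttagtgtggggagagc
INSIG1: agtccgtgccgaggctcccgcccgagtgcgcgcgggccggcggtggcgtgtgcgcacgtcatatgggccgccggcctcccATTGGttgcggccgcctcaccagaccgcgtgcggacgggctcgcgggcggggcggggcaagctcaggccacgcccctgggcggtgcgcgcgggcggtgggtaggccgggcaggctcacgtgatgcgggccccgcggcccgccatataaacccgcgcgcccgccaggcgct
MSMO1 holds 4 such boxes, FDPS 3 and INSIG1 1. At least 1 is in 32% of the 35116 windows of the table. The genes were picked for their fall and their boxes, but not all are among the largest falls. FDPS, at -0.95, fell least of the 6 called enzymes of sterol synthesis. The share of the lists with a box was not counted, so the counts describe these windows and no more.

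**Figure D4:**
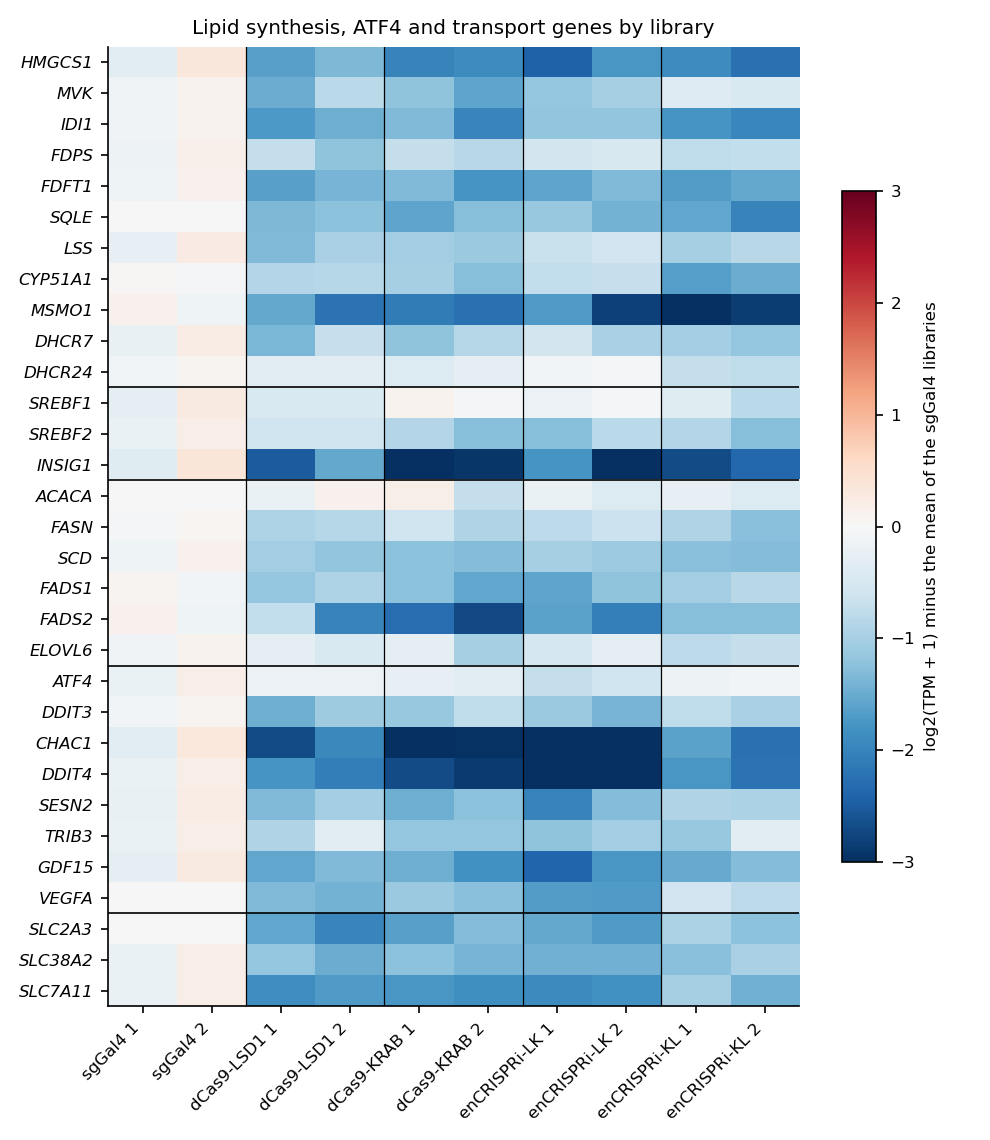
Each cell is log2(TPM + 1) of a gene (rows, grouped from the top as sterol synthesis, SREBP, fatty acid, ATF4 and transport genes) in a library (columns) minus the mean of the 2 sgGal4 libraries, with colours saturating at -3 and 3. Blue runs across all sgHS2 groups for FDFT1, SCD, DDIT4 and SLC2A3, and DDIT4 was lowest with enCRISPRi-LK.

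Effectors of ATF4, the transcription factor of the amino acid and integrated stress responses, were lower too. Of 15 tested, 4 passed, all lower, against 0.563% of all genes called lower. At an unadjusted p under 0.05, 7 were lower, against 1296 of all 10127 genes in either direction. The median was -0.63. From the same sgGal4 libraries it was -1.09 with dCas9-KRAB, -1.25 with enCRISPRi-LK and -0.72 with enCRISPRi-KL, so the fall was not particular to dCas9-LSD1. ATF4 itself, at 124 and 164 TPM with sgGal4 and 127 and 127 TPM with dCas9-LSD1, did not pass (-0.17, adjusted p = 0.746). DDIT4, an inhibitor of mTORC1, fell from 146 and 195 TPM to 49.2 and 39.2 TPM (-1.92, standard error 0.239, adjusted p = 0.00142). CHAC1, which degrades glutathione, fell from 16.7 and 26.8 TPM to 2.43 and 4.77 TPM (-2.32, adjusted p = 0.019). VEGFA, an angiogenic ligand, fell from 81.4 and 83.5 TPM to 32.6 and 30.3 TPM (-1.37, adjusted p = 0.0042), and GDF15, a stress cytokine, from 51.5 and 74.3 TPM to 20.5 and 24.0 TPM (-1.44, adjusted p = 0.0294). DDIT3, the proapoptotic factor CHOP, was at 29.6 and 33.8 TPM and at 10.7 and 14.6 TPM (-1.27, adjusted p = 0.0552). The count called was 1 without dCas9-LSD1 replicate 2 and 2 without each of the other 3 libraries. CHAC1 and GDF15 lost their calls without each of the 4 libraries and VEGFA without dCas9-LSD1 replicate 2.

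The window of 250 bases before the start of CHAC1 (chr15:40953221-40953470, GRCh38.p14, plus strand, RefSeq) is shown because CHAC1 fell most in this list. The letters TGATGNAA, the shape of a C/EBP-ATF response element, or their complement TTNCATCA are in capitals.
CHAC1: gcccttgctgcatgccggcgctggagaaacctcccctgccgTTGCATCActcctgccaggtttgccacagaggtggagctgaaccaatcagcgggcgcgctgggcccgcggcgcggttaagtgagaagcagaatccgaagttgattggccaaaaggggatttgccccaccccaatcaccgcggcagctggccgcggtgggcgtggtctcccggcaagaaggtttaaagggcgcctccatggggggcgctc
The window holds 1 match, which describes the sequence only. At least 1 is found for 4 of the 14 tested genes of the list with a window, and in 3.14% of all 35116 windows. The first is a count of genes and the second a share of windows. The list is itself one of ATF4 effectors, so no conclusion is drawn from these numbers.

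Transport genes gave single calls. SLC2A3, a glucose transporter, fell from 153 and 158 TPM to 52.3 and 38.9 TPM (-1.76, standard error 0.208, adjusted p = 0.00115), the only call among 16 glycolysis genes, whose median was -0.06. A fall was called in 0.563% of all genes tested. The other sgHS2 libraries held 47.5 to 80.5 TPM of SLC2A3, a difference of -0.37 that did not pass (adjusted p = 0.546). SLC38A2, an amino acid transporter, fell from 225 and 298 TPM to 116 and 91.7 TPM (-1.32, adjusted p = 0.00364), the only call among 10 amino acid transporters. Without dCas9-LSD1 replicate 2 it was -1.15 and did not pass. SLC7A11, the cystine antiporter, was at 7.70 and 10.4 TPM with sgGal4 and 1.74 and 2.08 TPM with dCas9-LSD1 and did not pass (-1.78, adjusted p = 0.0509). In the same fit 0 of 13 genes of serine, proline and one-carbon metabolism, 0 of 19 cytosolic tRNA synthetases and 0 of 13 genes of the unfolded protein response passed. At an unadjusted p under 0.05 there were 5, 0 and 5, against 1296 of all 10127 genes. Of 10 immediate early genes tested, EGR1, a growth factor response gene, was the only call, from 91.6 and 106 TPM to 49.2 and 50.3 TPM (-0.98, adjusted p = 0.0294). It was lost without each of the 4 libraries (-1.08 to -0.87), with no trend and with only the groups compared. In the other sgHS2 libraries EGR1 was at 27.9 to 51.2 TPM, a difference of 0.27 that did not pass (adjusted p = 0.65). MYC differed from sgGal4 by 0.08 (adjusted p = 0.885).

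The 3 largest rises after ZNF10 were those of genes at or below 1.76 TPM in the sgGal4 libraries. SOD3, the extracellular superoxide dismutase, was listed at 0.13 and 0 TPM with sgGal4 and at 9.80 and 8.83 TPM with dCas9-LSD1, above all 6 other sgHS2 libraries, which ranged from 0.82 to 4.61 TPM. It rose by 3.28 from sgGal4 (standard error 0.395, adjusted p = 0.00124), and the difference from the other sgHS2 groups did not pass (1.74, adjusted p = 0.0539). MDP1, a phosphatase, was at 0.38 and 0 TPM and at 4.42 and 5.09 TPM (2.29, adjusted p = 0.031). CYB5A, cytochrome b5, was at 1.76 and 0.23 TPM and at 6.40 and 8.07 TPM (2.15, adjusted p = 0.0305). APOC1, an apolipoprotein, was abundant in comparison. It rose from 169 and 214 TPM to 530 and 548 TPM (1.5, standard error 0.133, adjusted p = 6.39e-05), with 444 to 682 TPM in the other sgHS2 libraries. Its neighbour APOE, named after its values were seen, rose from 49.1 and 64.0 TPM to 98.2 and 112 TPM (0.89, adjusted p = 0.0294), below all 6 other sgHS2 libraries. DES, the muscle intermediate filament desmin, rose from 9.02 and 10.9 TPM to 31.7 and 31.1 TPM (1.57, adjusted p = 0.0121). The other members of the 12 largest rises were EMC10, TSPAN18, VCX3B, HIST1H4D and SMIM4, with fold changes from 1.41 for SMIM4 to 1.91 for EMC10. MDP1, TSPAN18 and VCX3B lost their calls without each of the 4 libraries. So did SMIM4 without either dCas9-LSD1 library, CYB5A without these or sgGal4 replicate 2, and DES, EMC10 and APOE without these or sgGal4 replicate 1.

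The largest falls are given next. FAM19A2, a secreted chemokine-like protein, fell from 53.7 and 83.2 TPM to 11.6 and 10.2 TPM (-2.51, standard error 0.357, adjusted p = 0.00364). TMEM158, a membrane protein, fell from 42.8 and 55.7 TPM to 8.65 and 7.96 TPM (-2.42, adjusted p = 0.00133). IL6, the cytokine, fell from 12.8 and 12.8 TPM to 1.77 and 2.02 TPM (-2.25, adjusted p = 0.0305). The 12 named falls were drawn from genes whose libraries did not overlap between the groups, so that separation is no further result. It was found in 41.3% of all genes tested. SMCO4, at 2.62 and 5.03 TPM with sgGal4, and RP11-463D19.2, at 2.73 and 5.94 TPM, were listed at 0 in both dCas9-LSD1 libraries, so no fold is given for them. The remaining members of the 12 largest falls were CHAC1, PRSS2, KLHL24, PCED1B, SLCO4C1, INSIG1 and CPZ, from -2.32 for CHAC1 to -2.0 for CPZ. PRSS2 belongs to a family of near-identical trypsinogen genes, and its level is uncertain. Of the 12, TMEM158 passed without any 1 of the 4 libraries, FAM19A2 lost its call without dCas9-LSD1 replicate 2, CPZ without sgGal4 replicate 2 or either dCas9-LSD1 library, and the other 9 without each of the 4.

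Over 74 cytosolic ribosomal protein genes tested, the median was 0.26. From the same sgGal4 libraries it was 0.329 with dCas9-KRAB, 0.377 with enCRISPRi-LK and 0.345 with enCRISPRi-KL. At an unadjusted p under 0.05, 33 of the 74 were higher, against 1296 of all 10127 genes in either direction. Of the 74, 5 were called higher (RPS23, RPL36, RPL23, RPL31 and RPS21, from 0.53 to 0.72) and 1, RPL8, lower (-0.62), against 0.306% and 0.563% of all genes. The count of those called higher was 24 without sgGal4 replicate 2, 1 without sgGal4 replicate 1 and 0 without either dCas9-LSD1 library. Of 39 replication-dependent histone genes tested, HIST1H4D was the only call, from 72.0 and 59.2 TPM to 186 and 179 TPM (1.47, adjusted p = 0.00167). The list median was 0.40, and from the same sgGal4 libraries it was 0.488 with dCas9-KRAB, 0.585 with enCRISPRi-LK and 0.307 with enCRISPRi-KL. Without sgGal4 replicate 2, 12 histone genes were called higher and the median was 0.52, whereas without sgGal4 replicate 1 the median was 0.17. With quantile normalization 3 were higher and 1 lower. Both families have near-identical copies, so the level of each gene is uncertain. Of 13 mitochondrially encoded genes, MT-ND5 fell (-0.70, adjusted p = 0.0173), but the difference was 0 after quantile normalization, and the count of these genes called lower was 6 without sgGal4 replicate 2 and 0 without either dCas9-LSD1 library. MT-ND5 was the lowest of the 13 in each sgGal4 and dCas9-LSD1 library. Quantile normalization gives genes of equal rank the same value, so its 0 reflects rank alone and does not bear on the fall. Of 35 replication and mitosis genes, 0 passed in limma and 4 had an unadjusted p under 0.05, 2 in each direction. Of 9 tested genes of the interferon response 0 passed and 3 had an unadjusted p under 0.05. Of 14 antioxidant genes SOD3 was the only call.

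Around the globin locus, 8 of the 68 listed genes within 1000000 bases of the start of HBE1 outside the β-like globin genes could be tested, and 45 were listed at 0 in all 10 libraries. In limma 0 passed against sgGal4, with a median of -0.14. At an unadjusted p under 0.05, 2 were lower, against 1296 of all 10127 genes in either direction. OR51B4, an olfactory receptor gene beyond the locus control region, was at 37.6 and 53.4 TPM with sgGal4 and 33.1 and 28.6 TPM with dCas9-LSD1 (-0.53, adjusted p = 0.386).

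Against the 6 other sgHS2 libraries, 16 genes (0.158%) passed the threshold in the dCas9-LSD1 libraries, 7 higher and 9 lower. The balance was 11 higher and 7 lower with median-of-ratios size factors and 12 and 10 with quantile normalization. Without dCas9-LSD1 replicate 1 the count was 0 in limma, without dCas9-LSD1 replicate 2 it was 4, and without 1 of the other 6 libraries it was 7 to 10. KDM1A, ZNF10, HBZ, FN1 and TFPI were past the threshold both here and against sgGal4, in comparisons that use the same dCas9-LSD1 libraries.

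FN1, fibronectin of the extracellular matrix (chromosome 2, 216225588 to 216300791, minus strand, hg19), was at 103 and 129 TPM in the sgGal4 libraries and 31.7 and 31.3 TPM in those labelled dCas9-LSD1. With enCRISPRi-KL it was at 28.7 and 27.4 TPM, just below dCas9-LSD1, whereas dCas9-KRAB (127 and 104 TPM) and enCRISPRi-LK (209 and 195 TPM) held levels like those of sgGal4 or above. The fold change was -1.84 from sgGal4 (standard error 0.185, adjusted p = 0.000238), -1.44 from the other sgHS2 groups (adjusted p = 0.00092) and -1.84 from dCas9-KRAB (adjusted p = 0.000491). FN1 was lower than the mean of the other groups but not than each of them, and without dCas9-LSD1 replicate 1 the difference from them (-1.45) did not pass.

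TFPI, the inhibitor of the tissue factor pathway of coagulation (chromosome 2, 188328957 to 188419162, minus strand, hg19), was lowest in dCas9-LSD1. It was at 372 and 309 TPM with sgGal4, 91.4 and 95.02 TPM with dCas9-LSD1 and 140 to 225 TPM in the other sgHS2 libraries. The differences were -1.85 from sgGal4 (standard error 0.152, adjusted p = 3.45e-05) and -0.88 from the other sgHS2 groups (standard error 0.124, adjusted p = 0.00833). The latter did not pass without dCas9-LSD1 replicate 1 (-0.85) or replicate 2 (-0.91).

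Other genes differed from the sgHS2 groups while they stayed near sgGal4. HEMGN, hemogen of erythroid precursors, named after its values were seen, was at 94.9 and 104 TPM with sgGal4, 110 and 109 TPM with dCas9-LSD1 and 50.4 to 71.9 TPM in the other sgHS2 libraries (0.89 from these, adjusted p = 0.029). ACSM3, a mitochondrial acyl-CoA synthetase, was at 36.2 and 40.4 TPM, 34.8 and 39.9 TPM and 10.3 to 21.7 TPM (1.11, adjusted p = 0.0445). OPTN, the autophagy receptor optineurin, was at 12.8 and 13.1 TPM, 15.6 and 24.5 TPM and 4.35 to 8.36 TPM (1.48, adjusted p = 0.0458). For these 3 genes both dCas9-LSD1 libraries lay above all 6 others, which the choice of ACSM3 and OPTN required. The differences from sgGal4 of 0.14 for HEMGN, -0.04 for ACSM3 and 0.56 for OPTN did not pass, the sign for ACSM3 turning under quantile normalization. Against the other sgHS2 groups HEMGN passed without dCas9-KRAB replicate 1 but not without any other of the 8 libraries, and ACSM3 and OPTN lost their calls without each of the 8.

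Lower than in the other sgHS2 groups were EPB41L3, a membrane skeleton protein, at 7.09 and 5.32 TPM against 18.7 to 29.5 TPM (-1.74, adjusted p = 0.00944), and MYO1F, an unconventional myosin, at 2.58 and 3.33 TPM against 6.95 to 16.3 TPM (-1.70, adjusted p = 0.029). FAM217B was at 0.54 and 0.84 TPM against 3.96 to 8.31 TPM (-1.96, adjusted p = 0.0359). These 3 genes were named only from those whose dCas9-LSD1 libraries did not overlap the other sgHS2 libraries, so that separation is no further result. The values with sgGal4 were 17.6 and 11.1 TPM for EPB41L3, 8.09 and 6.33 TPM for MYO1F and 1.88 and 4.47 TPM for FAM217B. EPB41L3 lost its call without either dCas9-LSD1 library, MYO1F without each of the 8 libraries but dCas9-KRAB replicate 1 and FAM217B without each of the 8. The other 4 were VIM, SAMSN1, PAGE5 and MT-ND6, all lower, from -1.92 for PAGE5 to -0.47 for MT-ND6, and were named after their values were seen.

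**Figure D5:**
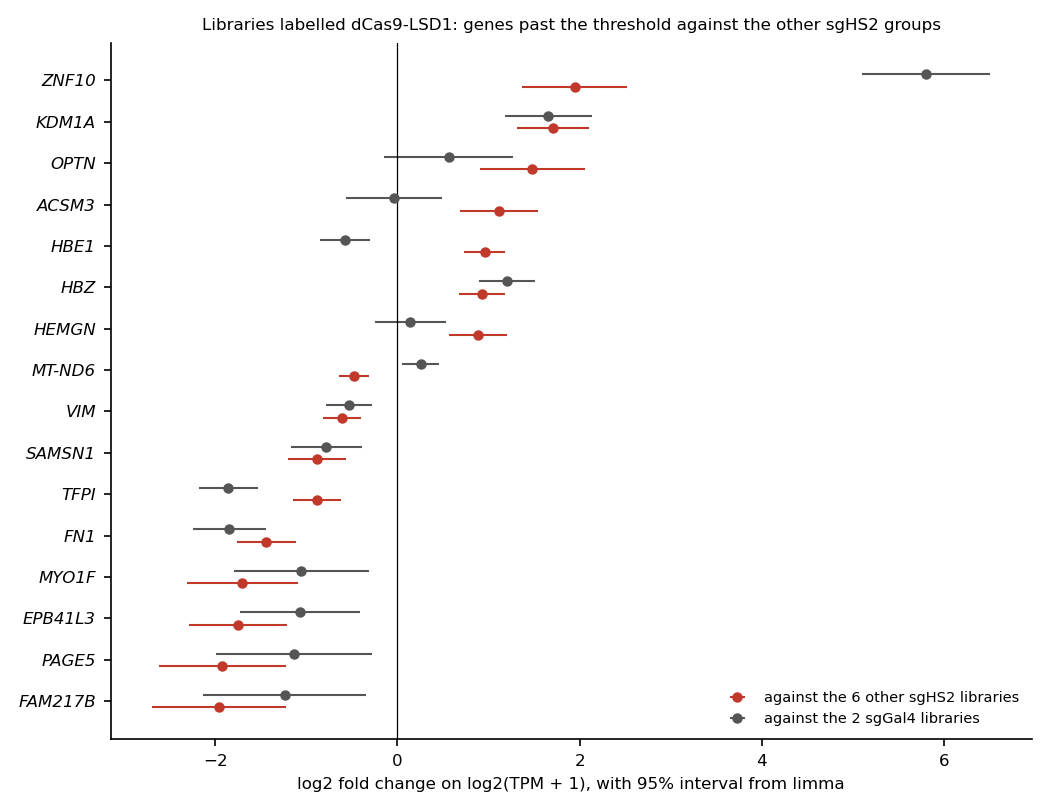
Log2 fold change with its 95% interval from limma of the 16 genes past the threshold between the libraries labelled dCas9-LSD1 and the 6 other sgHS2 libraries (red), with the difference of the same genes from sgGal4 (grey). HBE1 and MT-ND6 have intervals on opposite sides of 0 in the 2 comparisons, and ACSM3, HEMGN and OPTN have intervals against sgGal4 that include 0.

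Against dCas9-KRAB, the other single effector, 4 genes (0.0395%) passed the threshold. ZNF10 was higher by 5.36 (adjusted p = 1.54e-06) and KDM1A by 1.69 (adjusted p = 0.00677), and FN1 differed by -1.84 (adjusted p = 0.000491) and TFPI by -1.17 (adjusted p = 0.00658). Between these groups 845 genes had an unadjusted p under 0.05. The count was 2 without dCas9-LSD1 replicate 1 or dCas9-KRAB replicate 1, ZNF10 and FN1 in both cases.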

How the data were processed

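RNA was measured by RNA-seq in 10 K562 libraries, 5 groups of 2, grouped by their titles. The deposited values are TPM per gene symbol. Per the labels, the authors aligned reads to hg19 with STAR 2.5.2b and used RSEM; the annotation is not given in the sources used here. The depth is unknown, and no interval for counting error can be given. From the TPM, log2(TPM + 1) was fitted in limma 3.58.1 (R 4.3.3) over all 10 libraries for 10127 genes whose mean reached 1 TPM, with a mean-variance trend and p-values adjusted by Benjamini-Hochberg (threshold 0.05), after tests on simulated data. DESeq2, named by the methods, needs counts and was not used. TPM sums over globin and sterol synthesis genes were fitted as genes. Gene spans are those of canonical GENCODE transcripts on hg19, and 17973 of 20535 listed symbols matched. Promoters are RefSeq sequences of GRCh38.p14.

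The members and lists were chosen with earlier results of these data known. Named were the globin genes, effectors and reference genes, list members past the threshold and those a sentence on a list needs. Further ones were the 12 largest rises and falls without overlap and the 8 largest differences from the other sgHS2 groups, also without overlap. Up to 5 were named from dCas9-KRAB, where 4 passed. Alternatives were another pseudocount, other filters, median-of-ratios and quantile scaling, exclusion of mitochondrial genes, no trend, fewer groups, a replicate block, a GC and length correction added after the data were seen, and leaving out each library. Single values of some list members are not reported here.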

Additional observations from a re-analysis of the deposited data

Results flagged for a closer look

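Each of the following was a tested difference between groups in limma, in the libraries labelled dCas9-LSD1 against other cells with sgRNAs to HS2. Against the mean of the other sgHS2 groups, the log2 difference was 1.95 for ZNF10, 1.71 for KDM1A, 1.48 for OPTN, 1.11 for ACSM3, 0.96 for HBE1, 0.93 for HBZ and 0.89 for HEMGN. It was -0.47 for MT-ND6, -0.60 for VIM, -0.88 for SAMSN1, -0.88 for TFPI, -1.44 for FN1, -1.70 for MYO1F, -1.74 for EPB41L3, -1.92 for PAGE5 and -1.96 for FAM217B. The summed β-like globin genes differed by 0.73. Against dCas9-KRAB, the difference was 5.36 for ZNF10, 1.69 for KDM1A, -1.17 for TFPI and -1.84 for FN1. The ZNF10 levels of the other groups lay on both sides of dCas9-LSD1.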

How the results depend on the processing

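Against sgGal4, 88 genes passed. The count was 37 with no filter on low values, 22 with no mean-variance trend, 25 with only the groups compared, 151 with quantile normalization and 139 without mitochondrially encoded genes, and it ranged from 16 to 138 when 1 library was left out. The summed β-like globin genes kept their direction but no longer passed with no filter (-0.55, adjusted p = 0.0665), median-of-ratios size factors (-0.55, adjusted p = 0.0595), no trend (-0.55, adjusted p = 0.339) and only the groups compared (-0.55, adjusted p = 0.164), and ranged from -0.58 to -0.51 when 1 library was left out. Against the other sgHS2 groups, the count of 16 became 2 with no filter, 2 with no trend and 0 to 10 with 1 library left out, and the balance was 10 higher and 8 lower without mitochondrially encoded genes. The summed β-like genes did not pass there with no trend (0.73, adjusted p = 0.247), and ranged from 0.69 to 0.76 with 1 library left out, without a call only when this was dCas9-LSD1 replicate 1 (adjusted p = 0.0681). Against dCas9-KRAB, the count of 4 became 2 with no filter, 7 with quantile normalization, 1 with no trend and 2 to 4 with 1 library left out. The cause of these changes was not tested.

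Genes that passed in neither case changed sign. HBB was at -0.0040 with median-of-ratios, -0.027 with quantile normalization, -0.039 without mitochondrial genes, -0.21 with the GC and length correction and -0.26 to 0.28 with 1 library left out. ACSM3 was at 0.0064 with quantile normalization, 0.048 with the correction and -0.13 to 0.059 with 1 library left out. HBQ1 was at -0.0048 without mitochondrial genes, -0.36 with the correction and -0.21 to 0.30 with 1 library left out. HBD was at -0.069 with the correction. With 1 library left out, HBG1 ranged from -0.19 to 0.056, HBA1 from -0.49 to 0.25 and GAPDH from -0.29 to 0.17.

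Same-numbered libraries did not deviate together (correlation of deviations 0.0123 between dCas9-LSD1 and sgGal4, and -0.0213 to 0.0229 over all pairs of groups). These values cannot show whether same-numbered libraries were prepared together. With the replicate number as a block, 69, 13 and 4 genes passed in the 3 comparisons, without INSIG1, EGR1, GFI1B, MSMO1 and FDPS in the first, and the summed β-like genes passed in both (adjusted p = 0.0256 and 0.00177). TPM keeps no depth, so what read numbers limit cannot be stated.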
